A study of Homo sapiens with 6 samples.

Results

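The 10 genes described here make up the core of the switch by which a cell leaves the G1 phase and begins to copy its DNA. They are the D cyclins CCND1, CCND2 and CCND3, the kinases CDK4 and CDK6, the E cyclins CCNE1 and CCNE2, the transcription factors E2F1 and E2F2, and the retinoblastoma gene RB1. They were picked out by name from the 36601 genes in the count matrices, and the set was drawn up with earlier results of these data known. All 10 were found, and all 10 had enough counts to be tested. Transcripts were counted as unique molecular identifiers (UMIs) in single cells by Seq-Well S3, which captures cells with barcoded beads in small wells. SK-N-BE(2)-C, a long-used line of human neuroblastoma cells, served in all groups, so each group is a model from 1 line. The 6 libraries formed 3 groups of 2: cells given the solvent DMSO, cells given TSA, the usual abbreviation of trichostatin A, which blocks the catalytic activity of histone deacetylases, and cells given E6R. By the title of the series, the study concerns inhibiting the histone deacetylase complex other than through its catalytic site. The sources used here do not give doses, exposure times or what E6R is chemically. The labels number the libraries of a group as replicates without saying that they came from separate cultures, so p-values measure the spread between these libraries, which may be technical.

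In a growing cell, mitogen signals raise the D cyclins, which bind and switch on CDK4 or CDK6. These kinases phosphorylate the RB1 protein, which until then holds E2F1, E2F2 and their relatives inactive. Released E2F factors switch on genes of DNA synthesis together with the E cyclins, whose partner CDK2 phosphorylates RB1 further and closes the loop. CCND1 and CDK4 are well known for their high expression in neuroblastoma.

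Cells were barcodes with at least 500 genes and at most 20% mitochondrial UMIs. There were 17589 such cells, 1861 to 3946 per library, with 4206366 to 26180262 UMIs in the cells of a library and a median of 1054 to 1880 UMIs per cell. Levels are CPM, counts scaled to a common library total with TMM factors (the trimmed mean of M-values). UMIs count transcript ends and were not divided by gene length. Mitochondrial UMIs made up 5.83% and 6.20% of the DMSO libraries, 6.08% and 9.71% of the TSA libraries, and 1.55% and 1.51% of the E6R libraries. All 10 adrenergic neuroblastoma markers had UMIs in every library. Of 10 mesenchymal or fibroblast markers, 9 had UMIs in each library, with a sum of 487 to 1033 CPM. Most of that sum in every library came from 1 gene, THY1, at 407 to 726 CPM. DCN, a fibroblast proteoglycan, was higher in the first library of each group, at 56.9 against 1.91 CPM for DMSO, 63.0 against 29.0 for TSA, and 165 against 1.92 for E6R. COL1A1, COL3A1, LUM and ACTA2 had the same order in each group. THY1, COL1A2, PDGFRB and PRRX1 did not, with THY1 at 436 and 456 CPM for DMSO and 648 and 726 for E6R. POSTN had no UMIs. Of 7 immune markers 3 to 6 had UMIs, summing to 8.31 to 17.7 CPM, and the 5 epithelial markers summed to 25.4 to 112 CPM. The part of these differences in the results was not tested, apart from the alternatives without each library and without mitochondrial genes. Pairs of libraries shared 11 to 58 cell barcodes. In sums over a library, fewer cells with a transcript and fewer copies per cell cannot be told apart. Shares of cells are given as well, but at so few UMIs per cell they move with the mean level and cannot settle this.

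The genes' positions on GRCh38, from GENCODE 29, are chr11:69641087-69654474 for CCND1, chr12:4273772-4305350 for CCND2, chr6:41934933-42050357 for CCND3, chr19:29811898-29824308 for CCNE1, chr12:57747727-57756013 for CDK4, chr7:92604921-92836594 for CDK6, chr20:33675683-33686404 for E2F1, chr1:23506430-23531220 for E2F2 and chr13:48303726-48599436 for RB1. All are protein-coding. CCND1, CCND2, CCND3, CCNE2, CDK4, CDK6 and RB1 overlap another annotated gene on the opposite strand. On its own strand CCND2 overlaps AC008012.1, annotated as protein-coding, and CCND3, CDK4, CDK6 and RB1 overlap noncoding RNA genes. The sources used here do not say whether counting used strand or how reads shared by overlapping genes were treated. Reads from such neighbours could therefore not be separated. The 250 bases upstream of a start site were read from RefSeq's promoter table, build GRCh38.p14, which held 7 of the 10 genes. CDK4, E2F1 and E2F2 are shown, the genes among these 7 with a motif match in those bases. CDK6, which fell more under TSA than CDK4, has no match there. Nor has CCNE1, which like E2F1 and E2F2 was higher in cells rich in replication transcripts. Whether matches go with expression was not tested. Capitals mark matches, on either strand, to the E-box CACGTG, the core bound by MYC-family factors, or to the E2F-type words TTTCCCGC, TTTGGCGC, TTTCGCGC and TTTGCCGC.
CDK4, chr12:57752311-57752560, minus strand: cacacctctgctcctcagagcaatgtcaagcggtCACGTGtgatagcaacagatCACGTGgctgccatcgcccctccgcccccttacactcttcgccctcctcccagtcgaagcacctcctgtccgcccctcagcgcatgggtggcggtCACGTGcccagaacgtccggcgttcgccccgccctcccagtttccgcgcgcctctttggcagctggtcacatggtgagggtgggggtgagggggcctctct
E2F1, chr20:33686386-33686635, minus strand: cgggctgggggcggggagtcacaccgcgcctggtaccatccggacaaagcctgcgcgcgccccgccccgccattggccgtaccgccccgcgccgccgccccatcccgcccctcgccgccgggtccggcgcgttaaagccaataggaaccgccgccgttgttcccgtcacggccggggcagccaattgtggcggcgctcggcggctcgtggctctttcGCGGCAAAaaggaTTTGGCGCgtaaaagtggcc
E2F2, chr1:23531234-23531483, minus strand: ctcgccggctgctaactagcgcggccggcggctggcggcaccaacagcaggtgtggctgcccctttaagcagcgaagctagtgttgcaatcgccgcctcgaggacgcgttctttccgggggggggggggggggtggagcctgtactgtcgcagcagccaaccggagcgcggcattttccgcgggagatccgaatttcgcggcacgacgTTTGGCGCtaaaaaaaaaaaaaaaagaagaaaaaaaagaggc

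The CDK4 stretch holds 3 E-boxes, which begin 216, 196 and 101 bases before the start site. Among 35116 RefSeq windows of 300 bases, 7.26% held at least 1 E-box and 0.0940% held 3 or more. E2F1 holds 2 E2F-type words, which begin 33 and 20 bases before the start, and E2F2 holds 1, which begins 42 bases before it. Such a word was found in 3.31% of all windows, and 2 or more in 0.145%. CDK6 has 2 windows in the table, and 1 of them holds an E-box that begins 30 bases after the start. No match to either motif was found in the windows of CCND3, CCNE1 and RB1, which says only that these letters are not there. The windows of CDK4 and RB1, all 3 of CCND3 and 1 of the 2 of CDK6 lie inside the gene as GENCODE 29 annotates it, so their start sites are not the outermost ones. A match is a description of the letters and not a binding site.

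The clearest change in the G1 switch was the fall of the D cyclin that dominates these cells and of both of its kinases under TSA. CCND1 fell 7.64-fold, CDK6 5.45-fold and CDK4 2.06-fold against DMSO, while RB1 rose 2.00-fold. The E cyclins, E2F1 and E2F2 did not pass the test in this comparison. Under E6R 0 of 10 members passed the test against DMSO, beside 0% of all genes tested, so this does not set the members apart. CCND1, CDK4 and CDK6 were far above their TSA levels under E6R. By edgeR's quasi-likelihood test with Benjamini-Hochberg adjustment over 16763 genes, TSA against DMSO changed 4 of 10 members, 1 higher and 3 lower, beside 29.7% of all genes tested (16.2% higher and 13.5% lower). The members' median log2 fold change was -0.15, and that of all genes tested was -0.01. Scaling by total counts in place of TMM moved that median of all genes to -0.32 and the calls from 2720 higher and 2255 lower to 1717 and 3361. The members called were then CCND1, CDK4 and CDK6, all lower. Without DMSO 1, TSA 1 or TSA 2 there were 2 members called, CCND1 and CDK6. For E6R the median of all genes moved from 0.03 to -0.10 against DMSO and from -0.09 to 0.08 against TSA.

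**Figure D1:**
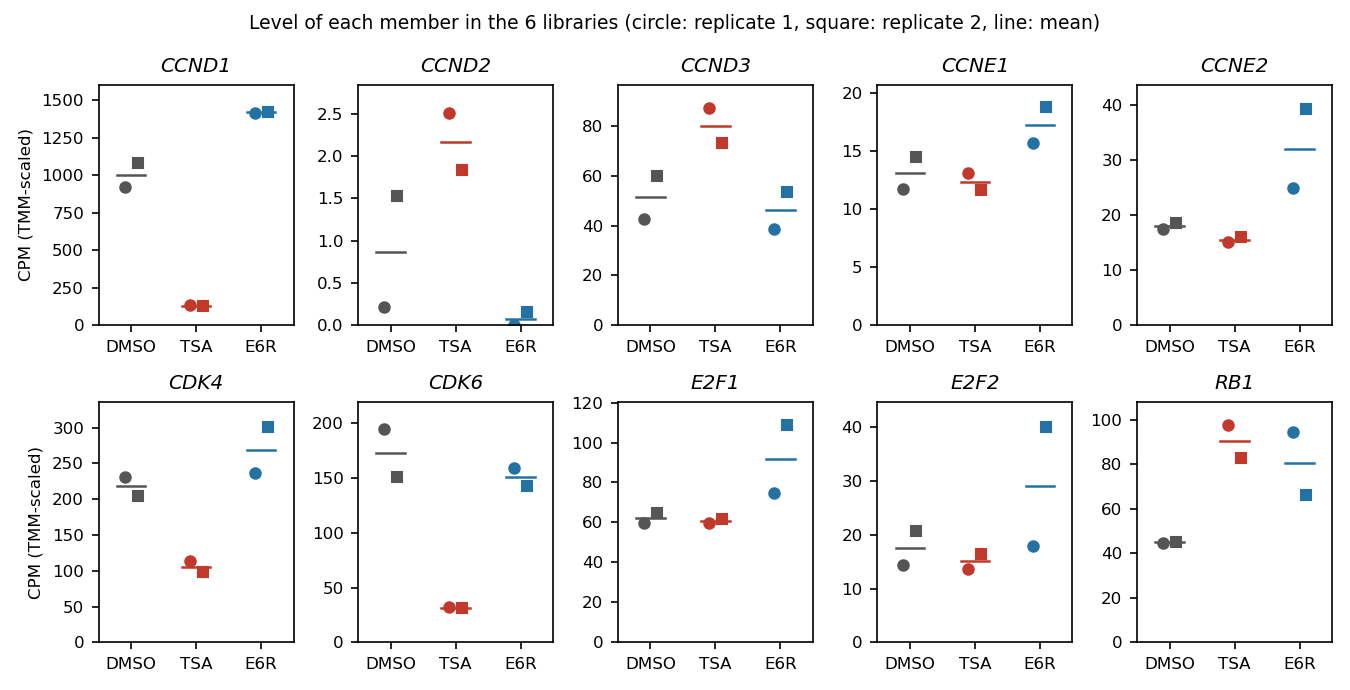
Level of each of the 10 genes in the 6 libraries, in CPM scaled by TMM (vertical axes start at 0 and differ between genes). Circles are replicate 1, squares replicate 2 and lines group means. CCND1, CDK4 and CDK6 are lowest in both TSA libraries, and RB1 is lowest in both DMSO libraries.

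CCND1, the D cyclin that partners CDK4 and CDK6 in most solid tissues, was the most abundant member and ranked 137 of 16763 genes by its mean CPM. Its level was 925 and 1082 CPM under DMSO, 137 and 125 CPM under TSA, and 1418 and 1422 CPM under E6R. The 3 groups did not overlap: TSA was lowest, DMSO was in between and E6R was highest. The log2 fold change of TSA against DMSO was -2.93 (SE 0.21, edgeR adjusted p = 0.000489). E6R against DMSO gave 0.50 (SE 0.20, edgeR adjusted p = 0.254), which missed the threshold, with a 95% interval of 0.05 to 0.95. E6R and TSA differed by 10.8-fold (log2 3.43, SE 0.22, edgeR adjusted p = 0.000228). The TSA call and the E6R against TSA call held under all 24 alternative settings, with log2 values of -3.32 to -2.58 and of 3.03 to 3.73.

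CCND3, the D cyclin known for its role in blood and muscle cells, stood at 42.7 and 60.1 CPM under DMSO, 87.1 and 73.0 CPM under TSA, and 38.7 and 53.5 CPM under E6R. Both TSA libraries were above the other 4. TSA against DMSO gave a log2 fold change of 0.64 (SE 0.26, edgeR adjusted p = 0.0942) and did not pass, nor did it in 20 of 24 alternatives (log2 0.34 to 0.90 over all 24, adjusted p = 0.0285 to 0.359). E6R was lower than TSA by a log2 value of -0.79 (SE 0.25, edgeR adjusted p = 0.0389). This call was lost in 11 of 24 alternatives, among them scaling by total counts (-0.62, adjusted p = 0.0952) and leaving out DMSO 1, DMSO 2, TSA 1, TSA 2 or E6R 1 (-0.92 to -0.51, adjusted p = 0.0516 to 0.203).

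CCND2, the D cyclin of many neural precursors, was barely detected. It had 1 and 8 UMIs under DMSO, 33 and 21 under TSA, and 0 and 4 under E6R, or 0.212 and 1.53 CPM, 2.51 and 1.83 CPM, and 0 and 0.150 CPM. It passed the test for E6R against TSA (log2 -4.47, SE 1.06, edgeR adjusted p = 0.0129), but this rests on 4 UMIs against 54. No library outside TSA held more than 8 UMIs, so the gene entered the test largely through the group where it was highest. The call is therefore no independent support for a difference. The TSA level was 23.2-fold that of E6R with a counting interval of 8.56 to 88.3. Without TSA 1 or TSA 2 the call was lost (adjusted p = 0.0798 and 0.0603). Against DMSO neither TSA (log2 1.28, edgeR adjusted p = 0.337) nor E6R (log2 -3.19, edgeR adjusted p = 0.238) passed. In barcodes with fewer than 300 genes its level was 0.506 to 3.76 CPM, against 0 to 2.31 CPM in cells, both scaled to library totals without TMM factors. In E6R 1 it was found in 0 of 2891 cells, which at 3 counts of the total allows a share of up to 0.104% of cells with a UMI at this depth and sets no limit on cells that express it.

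The mix of D cyclin transcripts differed between groups, as shares of the UMIs of the 3 genes. CCND1 gave 95.6% and 94.6% of them under DMSO, 60.5% and 62.6% under TSA, and 97.3% and 96.4% under E6R. CCND3 gave 4.41% and 5.25%, 38.4% and 36.5%, and 2.66% and 3.63% in the same order. The exact binomial 95% intervals of the TSA libraries, 58.8% to 62.3% and 60.6% to 64.6% for CCND1, lay far from those of the other 4 libraries. These intervals, like all such intervals here, cover counting error only. These are shares of UMIs within a library and do not depend on how the libraries are scaled.

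**Figure D2:**
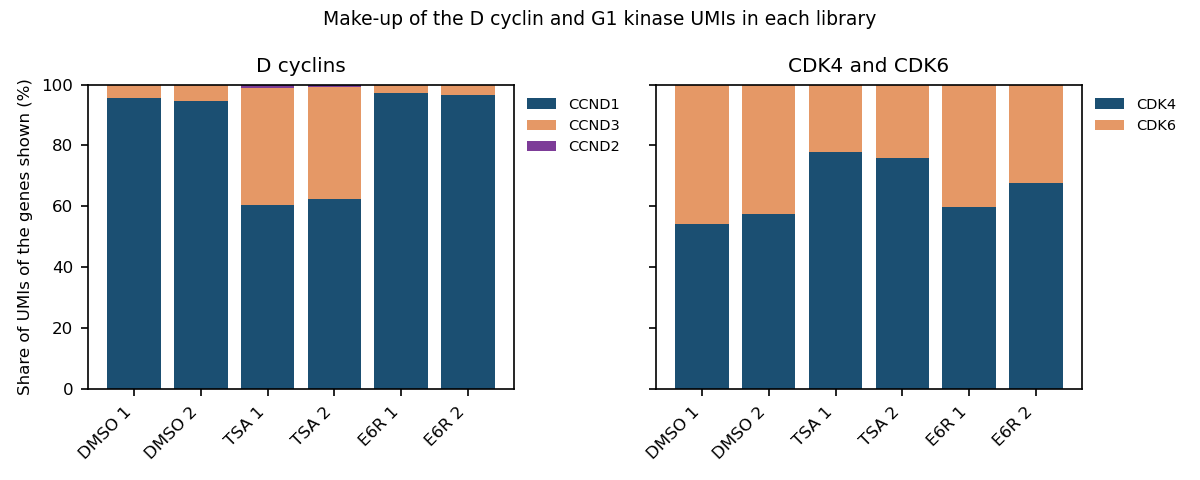
Share of the D cyclin UMIs from CCND1, CCND3 and CCND2 (left) and of the CDK4 and CDK6 UMIs from each kinase (right) in each of the 6 libraries, in percent. CCND3 gives 38.4% and 36.5% of D cyclin UMIs under TSA and at most 5.25% elsewhere, and CDK4 gives 77.9% and 75.8% of the kinase UMIs under TSA.

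CDK6, the kinase of the pair that is often high in immature cells, had a larger fitted change under TSA than CDK4. Its level was 195 and 151 CPM under DMSO, 32.0 and 31.5 CPM under TSA, and 159 and 143 CPM under E6R. The TSA libraries stood apart, and the DMSO and E6R libraries overlapped. TSA against DMSO gave a log2 fold change of -2.45 (SE 0.21, edgeR adjusted p = 0.000727). E6R against DMSO gave -0.20 (SE 0.20, edgeR adjusted p = 0.634), with a 95% interval of -0.66 to 0.26. E6R was higher than TSA by 2.25 on the log2 scale (SE 0.21, edgeR adjusted p = 0.000460). Both calls held in all 24 alternatives.

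CDK4, the other G1 kinase, stood at 231 and 205 CPM under DMSO, 113 and 98.6 CPM under TSA, and 236 and 301 CPM under E6R. TSA was again the lowest group, and both E6R libraries were above both DMSO libraries by a margin smaller than their own spread. TSA against DMSO gave -1.04 on the log2 scale (SE 0.21, edgeR adjusted p = 0.00928). The call was lost without DMSO 1 (-0.92, adjusted p = 0.0534), without TSA 1 (-1.12, adjusted p = 0.0561) or without TSA 2 (-0.91, adjusted p = 0.0970). E6R against DMSO gave 0.30 (SE 0.21, edgeR adjusted p = 0.489), and E6R against TSA 1.34 (SE 0.21, edgeR adjusted p = 0.00242), the latter in all 24 alternatives. Since CDK6 had the larger fold change, CDK4 made up more of the UMIs of the pair under TSA: 54.2% and 57.6% under DMSO, 77.9% and 75.8% under TSA, and 59.7% and 67.7% under E6R.

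CCNE1, an E cyclin that activates CDK2 at the start of replication, was at 11.7 and 14.5 CPM under DMSO, 13.1 and 11.6 CPM under TSA, and 15.7 and 18.8 CPM under E6R. The DMSO and TSA libraries overlapped, and no comparison passed, with log2 values of -0.09 for TSA against DMSO, 0.39 for E6R against DMSO and 0.48 for E6R against TSA (edgeR adjusted p = 0.839, 0.498 and 0.198). CCNE2, its close relative, was at 17.4 and 18.6 CPM, 15.0 and 15.9 CPM, and 24.8 and 39.2 CPM in the same order. The 3 groups did not overlap, and E6R had the widest spread. E6R against TSA gave a log2 value of 1.05 (SE 0.28, edgeR adjusted p = 0.0197). This call was lost in 9 of 24 alternatives. Without E6R 2, the library with the highest value, it was 0.71 (adjusted p = 0.0850), and without TSA 1 or TSA 2 it did not pass either (adjusted p = 0.118 and 0.109). Cells thinned to 1000 UMIs gave 0.68 (adjusted p = 0.163), and dropping the 5% of cells richest in UMIs gave 0.73 (adjusted p = 0.0930). The difference was -0.06 in cells poor in replication transcripts and -0.00 in cells rich in mitotic ones, the classes described below (adjusted p = 0.921 and 0.995). TSA against DMSO gave -0.22 (edgeR adjusted p = 0.586) and E6R against DMSO 0.83 (edgeR adjusted p = 0.224).

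E2F1, the best known activator of S phase genes, showed nearly the same level under DMSO and TSA after TMM scaling, 59.5 and 64.5 CPM against 59.6 and 61.8 CPM. Scaled to library totals without TMM factors it was at 66.6 and 70.3 against 54.9 and 53.3 CPM. In cells thinned to 1000 UMIs it was found in 5.73% to 6.42% of DMSO and 4.59% to 4.64% of TSA cells. The log2 fold change of E2F1 for TSA was -0.03 with a 95% interval of -0.55 to 0.49 (edgeR adjusted p = 0.932). It ran from -0.37 to 0.21 over the 24 alternatives and passed in 0 of them. Under E6R its level was 74.7 and 109 CPM, above the other 4 libraries but widely spread. E6R against DMSO gave 0.56 (SE 0.22, edgeR adjusted p = 0.257) and E6R against TSA 0.60 (SE 0.22, edgeR adjusted p = 0.0658), and neither passed. The latter did pass in 7 of 24 alternatives, among them total counts (0.77, adjusted p = 0.0298), DESeq2 (0.64, adjusted p = 0.0392) and leaving out E6R 1 (0.91, adjusted p = 0.0114). E2F2, another activator, was at 14.4 and 20.7 CPM under DMSO, 13.7 and 16.4 CPM under TSA, and 17.9 and 40.1 CPM under E6R. The groups of DMSO and E6R overlapped, and in these sums 1 library, E6R 2, stood far above the other 5. The 1% of cells richest in UMIs held 22.9% of the UMIs in cells of E6R 2, against 8.95% to 15.6% in the other 5. At 1000 UMIs per cell, E2F2 was found in 1.10% to 2.38% of DMSO, 1.13% to 1.29% of TSA and 1.77% to 3.41% of E6R cells. The part of the richest cells in the level of E6R 2 was not tested. The log2 values of E2F2 were -0.23 for TSA against DMSO, 0.73 for E6R against DMSO and 0.95 for E6R against TSA (edgeR adjusted p = 0.694, 0.381 and 0.0895). For E6R against TSA it passed in 5 of 24 alternatives, among them leaving out E6R 1 (1.49, adjusted p = 0.00486), and was -0.15 in cells poor in replication transcripts (adjusted p = 0.889).

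RB1, which restrains E2F, had its lowest values under DMSO. It was at 44.8 and 45.1 CPM under DMSO, 97.4 and 83.0 CPM under TSA, and 94.6 and 66.3 CPM under E6R. All 4 treated libraries lay above both DMSO libraries, and TSA and E6R overlapped. TSA against DMSO gave a log2 fold change of 1.0 (SE 0.23, edgeR adjusted p = 0.0147). Scaling by total counts gave 0.70 (adjusted p = 0.0580), and leaving out DMSO 1, DMSO 2, TSA 1 or TSA 2 gave 0.91 to 1.15 (adjusted p = 0.0622 to 0.0989), and the call was lost each time. E6R against DMSO gave 0.84 (SE 0.23, edgeR adjusted p = 0.205), and E6R against TSA -0.17 (SE 0.22, edgeR adjusted p = 0.580).

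Against DMSO, E6R changed 0 of 10 members by edgeR, beside 0% of the 16763 genes. DESeq2 also called 0 members, and 361 genes. At an unadjusted p under 0.05 there were 5 members (CCND1, CCND2, CCNE2, E2F1 and RB1), beside 17.4% of all genes. Without the low-count filter edgeR called 1095 genes, and RB1 was the 1 member among them (log2 1.0, adjusted p = 0.0104). Both E6R libraries lay above both DMSO libraries for 6 members, beside 24.6% of all genes, and below them for 1, beside 22.7%. E6R against TSA changed 6 of 10 members, beside 38.2% of all genes (18.7% higher and 19.5% lower): CCND1, CDK4, CDK6 and CCNE2 were higher under E6R, and CCND2 and CCND3 lower. Among these, CCND2 was tested largely because of its few counts under TSA. Without TSA 1 or TSA 2 there were 3 members called, CCND1, CDK4 and CDK6. The comparisons share libraries, so they are not independent of each other.

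**Figure D3:**
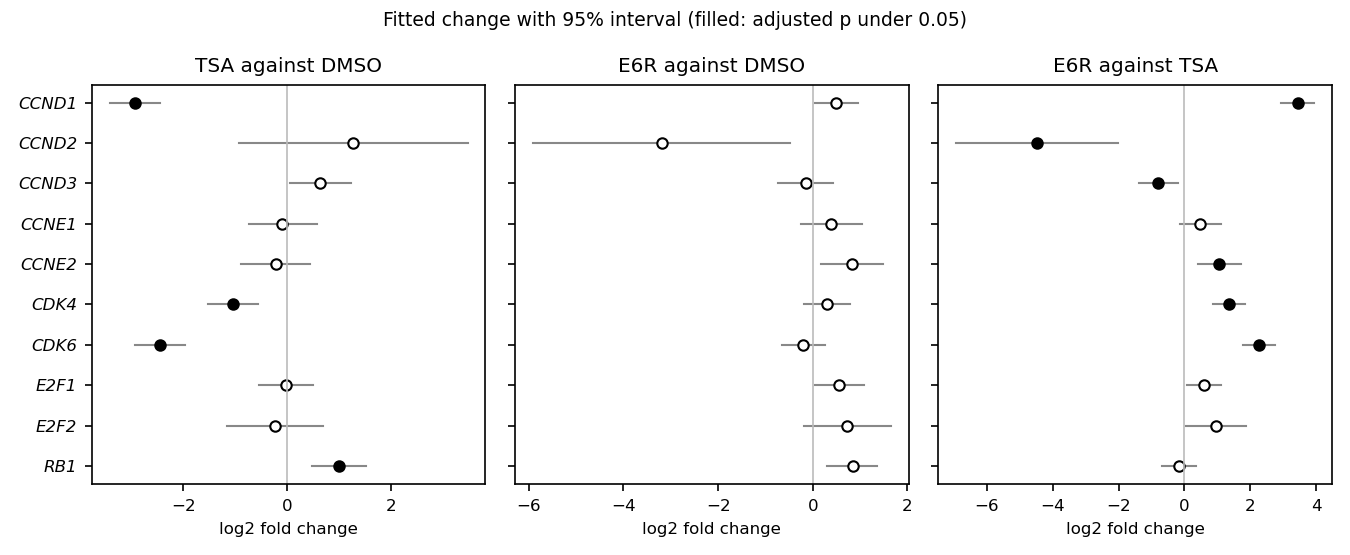
Fitted log2 fold change of each gene in the 3 comparisons, with the 95% interval as a line. Filled points have an edgeR adjusted p under 0.05 and open points do not: 4 are filled for TSA against DMSO, 0 for E6R against DMSO and 6 for E6R against TSA.

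CCND1 was found in a smaller share of cells under TSA, a measure that moves with the mean level and is no separate support. Among cells thinned at random to 1000 UMIs each, to remove differences in depth, CCND1 had at least 1 UMI in 57.3% and 66.1% of DMSO cells, 12.1% and 8.28% of TSA cells, and 68.8% and 72.2% of E6R cells. The exact binomial 95% interval was 10.7% to 13.7% for TSA 1 and 54.4% to 60.1% for DMSO 1. Without thinning the shares were 69.0% and 69.9%, 32.4% and 20.8%, and 82.5% and 78.2%, where the median UMIs per cell were 1268 and 1054, 1728 and 1876, and 1880 and 1124. Cells with 3 or more CCND1 UMIs after thinning were 10.3% and 13.1% of DMSO cells, 0.216% and 0.0359% of TSA cells, and 17.8% and 17.7% of E6R cells. The cells left out for having fewer than 1000 UMIs numbered 503 to 1718 per library.

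**Figure D4:**
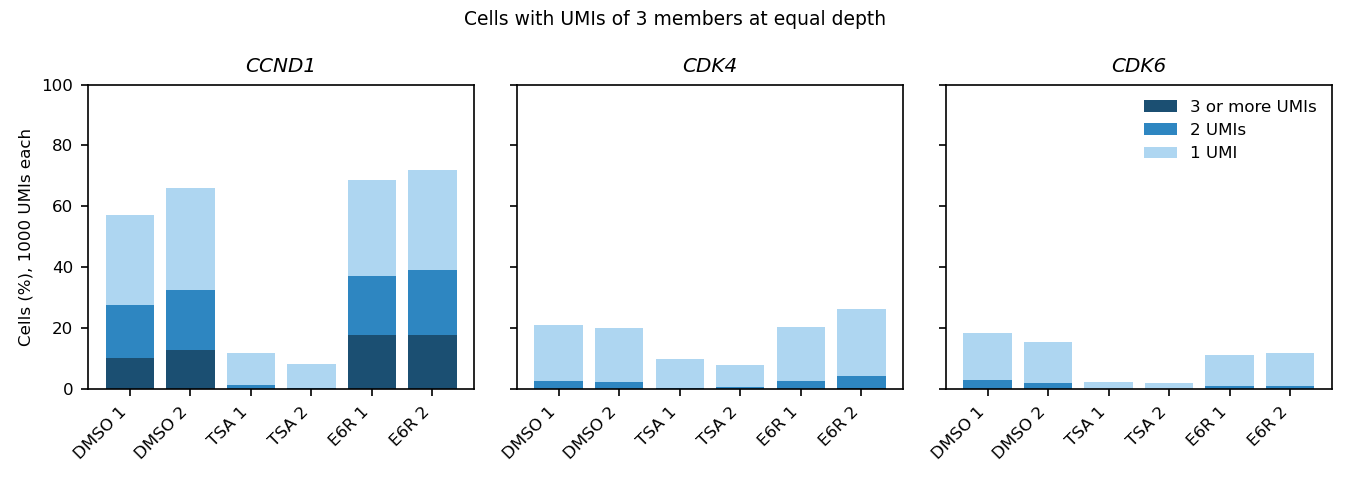
Share of cells, each thinned to 1000 UMIs, with 1, 2 or at least 3 UMIs of CCND1, CDK4 and CDK6, stacked for each library in percent. CCND1 was found in 8.28% to 12.1% of TSA cells and in 57.3% to 72.2% of the cells of the other 4 libraries.

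The kinases also differed between groups in thinned cells. CDK6 was found in 18.6% and 15.5% of DMSO cells, 2.54% and 2.19% of TSA cells, and 11.2% and 12.1% of E6R cells. Here both E6R libraries lay below both DMSO libraries, while their CPM overlapped. CDK4 was found in 21.3% and 20.3%, 9.99% and 8.07%, and 20.5% and 26.4% of cells in the same order. Without thinning, CDK4 was found in 32.6% and 24.9% of DMSO cells and in 30.4% and 20.8% of TSA cells, and these groups overlapped. RB1 was found in 4.55% and 4.93% of DMSO, 7.24% and 6.13% of TSA, and 7.73% and 6.37% of E6R cells when thinned, and the intervals of DMSO 2 (3.95% to 6.08%) and TSA 2 (5.27% to 7.09%) overlapped.

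Barcodes with fewer than 300 genes carried these transcripts too, mostly at a lower CPM than cells when both were scaled to library totals without TMM factors. Leaving out CCND2, their level was 0.573 to 1.05 times that in cells under DMSO, 0.674 to 1.04 times under TSA and 0.718 to 1.14 times under E6R. CCND1 was at 918 and 1136 CPM in them under DMSO, 132 and 86.1 under TSA, and 1444 and 1375 under E6R, against 1036 and 1181, 127 and 108, and 1422 and 1443 CPM in cells. CDK6 was at 176 and 154, 26.5 and 19.2, and 125 and 144 CPM, against 218 and 165, 29.5 and 27.2, and 159 and 145 CPM in cells. TSA was lowest for both genes in either kind of barcode. Such barcodes held a median of 110 to 250 UMIs, and CCND1 was found in 11.2% and 21.5% of them under DMSO, 2.26% and 1.64% under TSA, and 19.0% and 29.1% under E6R. Whether such barcodes are free RNA or poorly captured cells, and how much of the UMIs in cells came from free RNA, was not tested. Cells were not sorted into types, so no cell type that lacks these genes was available to measure it.

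To see which members follow the cell cycle, the 25% of cells with most and the 25% with fewest UMIs of 30 replication genes were compared within each library, after thinning to 1000 UMIs. No member is in that list. The classes are ranges of a score and not cell types: the cells at the cutting value numbered 121 to 519 per library and class, with ties broken at random. Replication-high cells changed 6 of 9 members tested by edgeR with library as a block, 5 higher and 1 lower, beside 15.0% of 11775 genes (7.67% higher). E2F2 rose 3.07-fold (log2 1.62, SE 0.23, edgeR adjusted p = 8.03e-05), from a median of 10.8 CPM (lowest 3.79, highest 17.7) to 30.5 CPM (lowest 15.3, highest 55.7). CCNE2 rose 2.26-fold (log2 1.18, SE 0.21, edgeR adjusted p = 0.000630) and CCNE1 2.17-fold (log2 1.12, SE 0.21, edgeR adjusted p = 0.000976). E2F1 rose 2.02-fold (log2 1.02, SE 0.14, edgeR adjusted p = 5.23e-05). CDK4 rose 1.30-fold (log2 0.38, SE 0.09, edgeR adjusted p = 0.00545). E2F1, E2F2 and CCNE1 were higher in 6 of 6 libraries, and CCNE2 and CDK4 in 5 of 6, TSA 2 being the exception.

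CCND1 was the member that fell in replication-high cells, by 0.35 on the log2 scale (SE 0.08, edgeR adjusted p = 0.00611). It was lower in 6 of 6 libraries, from 1192 to 876 CPM in DMSO 1, 1225 to 1099.7 in DMSO 2, 198 to 107 in TSA 1, 128 to 125 in TSA 2, 1631 to 1208 in E6R 1 and 1542 to 1370.3 in E6R 2. CCND3 (log2 0.34, edgeR adjusted p = 0.0549), CDK6 (0.05, adjusted p = 0.742) and RB1 (0.19, adjusted p = 0.150) did not pass, and CCND2 had too few counts to be tested. With the thinned counts in place of all counts, 7 members could be tested and 3 were called: CCND1, CDK4 and E2F1.

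The same split by 32 mitotic genes changed 3 of 9 members, beside 16.1% of 11653 genes (7.84% higher). E2F1 rose 1.61-fold (log2 0.69, SE 0.14, edgeR adjusted p = 0.00307) and was higher in 6 of 6 libraries. E2F2 rose 1.63-fold (log2 0.70, SE 0.19, edgeR adjusted p = 0.0162) in 5 of 6 libraries, and without E6R 1 it did not pass (log2 0.55, adjusted p = 0.108). CCND1 fell by 0.47 on the log2 scale (SE 0.11, edgeR adjusted p = 0.00555), in 6 of 6 libraries. The E cyclins did not pass here, with log2 values of -0.18 for CCNE1 and -0.14 for CCNE2 (edgeR adjusted p = 0.633 and 0.754). With thinned counts 6 members could be tested and 1, CCND1, was called. The test of whether the class differences changed with treatment called 0 genes of 11775 for the replication classes and 0 of 11653 for the mitotic classes by edgeR. At an unadjusted p under 0.05 there were 5.77% of genes for TSA and 3.03% for E6R in the former, and 6.56% and 2.81% in the latter. Members reached that level only for TSA, 1 for the replication classes (CDK4, log2 difference -0.55, SE 0.18) and 2 for the mitotic classes (CCND1, -0.74, SE 0.18, and CDK6, 0.53, SE 0.20). For the 9 members tested the adjusted p was 0.720 to 1.

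**Figure D5:**
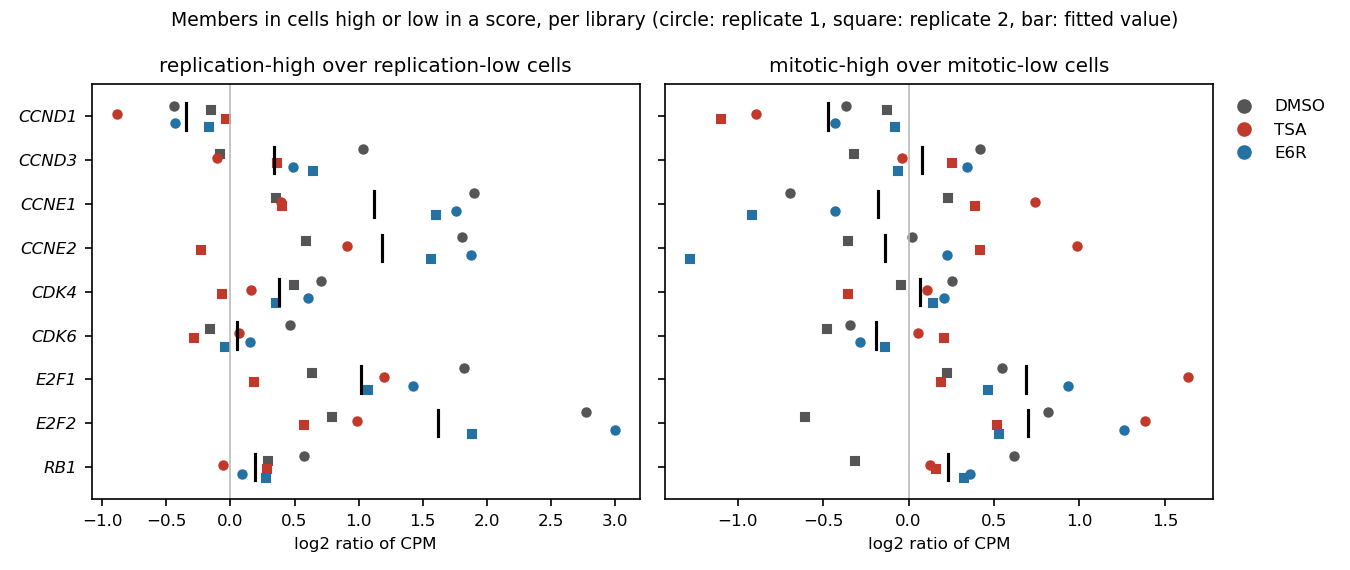
Log2 ratio of the CPM of 9 members in replication-high over replication-low cells (left) and mitotic-high over mitotic-low cells (right), with 1 point per library and a bar at the fitted value. All 6 libraries lie above 0 for CCNE1, E2F1 and E2F2 on the left, and all 6 lie below 0 for CCND1 in both panels.

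The treatment differences of CCND1 and CDK6 were present within each class, a check chosen after seeing the data. In the replication-low, replication-high, mitotic-low and mitotic-high cells taken alone, CCND1 and CDK6 passed the test for TSA against DMSO and for E6R against TSA each time. CDK4 did not pass for TSA against DMSO in replication-low cells (log2 -0.81, adjusted p = 0.0532). RB1 did not pass for TSA against DMSO in replication-low, replication-high or mitotic-low cells (log2 0.71 to 1.07, adjusted p = 0.0516 to 0.0789).

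The other genes of the pathway were read from 4 lists, each tested in the same fit, in which 29.7% of all genes were called for TSA against DMSO (16.2% higher and 13.5% lower). Of 10 further E2F factors, their DP partners and RB1 relatives, TSA against DMSO lowered 3 and raised 0. E2F3, an activator like E2F1 and E2F2, fell 3.60-fold from 57.4 and 54.5 CPM to 15.6 and 15.4 CPM (edgeR adjusted p = 0.00124). E2F5 fell 2.60-fold and E2F7, a repressor of the family, 2.29-fold (edgeR adjusted p = 0.0197 and 0.0223). The E2F3 call was kept without any one of the DMSO or TSA libraries, the E2F5 call was lost without DMSO 1, TSA 1 or TSA 2, and the E2F7 call was lost without any one of the 4. Of 10 genes that control the kinases, 4 rose (CDK2, CDK7, MNAT1 and FBXW7) and 2 fell (CDC25A and CCNA2). CDK2, the partner of the E cyclins, rose 2.28-fold from 27.0 and 23.3 CPM to 55.3 and 59.6 CPM (edgeR adjusted p = 0.00528), a call lost without DMSO 2. Without DMSO 1, TSA 1 or TSA 2, CDK2 was the 1 gene of these 10 still called. With total-count scaling the 4 lists held 5 higher and 14 lower calls in place of 10 and 9, and CDK7, MNAT1 and FBXW7, as well as DTL and SLBP among the targets below, were no longer called.

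Of 7 inhibitors of these kinases, 2 rose and 2 fell under TSA. CDKN1C, an inhibitor of cyclin-dependent kinases, rose on few counts, from 3 and 1 UMIs to 60 and 43 UMIs (log2 3.32, SE 0.93, edgeR adjusted p = 0.0309), and lost its call without any one of the DMSO or TSA libraries (adjusted p = 0.0762 to 0.158). Under E6R it had 19 and 7 UMIs, so like CCND2 it entered the test largely through TSA, where it was highest. Its calls are therefore no independent support for a difference. CDKN2D rose 2.67-fold and CDKN1B fell 2.17-fold (edgeR adjusted p = 0.0169 and 0.0248). The CDKN2D call was lost without DMSO 1 or TSA 1, and the CDKN1B call without any one of the DMSO or TSA libraries. CDKN2A, whose product inhibits CDK4 and CDK6, fell 2.91-fold from 10.8 and 8.99 CPM to 3.57 and 3.22 CPM (edgeR adjusted p = 0.0129). That call was lost without DMSO 1, TSA 1 or TSA 2 (log2 -1.59 to -1.36, adjusted p = 0.0700 to 0.112). CDKN1A, another inhibitor, was not called, at 20.4 and 95.1 CPM under DMSO and 128 and 87.4 CPM under TSA.

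Of 24 genes known as E2F targets, TSA raised 4 (TK1, CDC6, DTL and SLBP) and lowered 2 (TYMS and UNG). This is near the 29.7% of all genes called and is no result about the list. The list's median log2 fold change was 0.10 against -0.01 over all genes. TK1, CDC6 and TYMS were called without any one of the DMSO or TSA libraries, UNG was lost without TSA 1, and DTL and SLBP were lost without any one of the 4. TK1, a thymidine kinase, rose 2.92-fold from 154 and 125 CPM to 440.4 and 376 CPM (edgeR adjusted p = 0.00392). CDC6, which loads the replicative helicase, rose 2.83-fold from 93.1 and 96.4 CPM to 231 and 305 CPM (edgeR adjusted p = 0.00424). TYMS, thymidylate synthase, fell 7.37-fold from 71.4 and 72.7 CPM to 9.88 and 9.66 CPM (edgeR adjusted p = 0.000489).

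E6R against DMSO changed 0 genes of these 4 lists by edgeR. Their fitted values were mostly above DMSO, in 23 of 24 E2F targets (median log2 0.64), 10 of 10 E2F, DP and RB1 relatives (median 0.24), 9 of 10 kinase regulators (median 0.50) and 5 of 7 inhibitors (median 0.36). Over all 16763 genes 8725 fitted values were above DMSO, and their median was 0.03. The lists held 15, 2, 5 and 0 genes at an unadjusted p under 0.05, beside 17.4% of all genes. DESeq2 called 9 genes of the 4 lists. Against TSA, where 38.2% of all genes were called, E6R raised 10 of 24 E2F targets and lowered 2, raised 5 of the 10 E2F and RB1 relatives and 4 of the 10 kinase regulators, and raised 3 of the 7 inhibitors and lowered 2. Without TSA 1 or TSA 2 there were 11 calls in the 4 lists in place of 26. TYMS was higher under E6R than under TSA by 3.60 on the log2 scale (SE 0.20), UNG, a DNA repair glycosylase, by 2.30 (SE 0.22) and CDKN2A by 2.17 (SE 0.33), with edgeR adjusted p = 0.000228, 0.000496 and 0.00228. CDKN1C was lower by a log2 value of -2.55, CDKN2D by -1.81 and TK1 by -1.31 (edgeR adjusted p = 0.0306, 0.00444 and 0.00448). Among these, CDKN1C was tested largely because of its counts under TSA. The CDKN1C call was lost without TSA 1, TSA 2 or E6R 2, and the other 5 were kept without any one of the 6 libraries.

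The genes whose levels were most like those of a called member over the 6 libraries were found by Pearson's r of log2 CPM among 7507 genes with a mean of at least 20 CPM. With 3 groups of 2 libraries such an r mostly reflects the group means, and it is given as a description. For CCND1 it was SLC38A1, a glutamine transporter (r = 0.9996), at 152 and 199 CPM under DMSO, 17.2 and 14.8 under TSA, and 252 and 248 under E6R. UBE2E1 and TXNDC15 came next (r = 0.9990 and 0.9987). CDK4 was most like PHOX2A, a transcription factor that marks the adrenergic lineage (r = 0.9969), at 72.2 and 62.3, 14.4 and 13.1, and 74.9 and 130.0 CPM. PTGES2 and GPATCH4 followed. CDK6 was most like N4BP2 (r = 0.9987), then MEIS2, a homeobox factor, and USF2. SLC30A5 and RELL1 were among the 3 genes most like RB1. CCND3 was most like FLYWCH2, HDDC3 and VAT1, CCNE2 most like CDCA3, NUP88 and TIMM9, and CCND2, on its few counts, most like UBAP1, NKAPD1 and DCXR.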

How the data were processed

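The authors deposited, for each of 6 libraries, a matrix of UMI counts per gene and barcode, which were whole numbers and not normalized. Per the submitters' processing notes, the build was GRCh38 and STARsolo 2.7.9a was named. The sources used here do not state the annotation, the strand rule or how barcodes were chosen. Cells were defined by at least 500 genes and at most 20% mitochondrial UMIs. Doublets were not called, but an alternative left out the 5% of cells richest in UMIs. Counts were summed per library, since cells are not replicates. The 6 sums, 4206366 to 26180262 UMIs deep, were fitted together with edgeR 4.0.16 in R 4.3.3 (TMM, filterByExpr, quasi-likelihood test, Benjamini-Hochberg adjustment over all 16763 genes tested, threshold 0.05), which was tested on simulated data. DESeq2 1.42.0 was an alternative. Classes of cells were the 25% highest and lowest of each library by the summed UMIs of a gene list after thinning to 1000 UMIs, tested on their summed counts with library as a block. Shares have exact binomial 95% intervals. With 2 libraries per group an exact permutation test cannot go below p = 0.333, and shares are given without a test. The named genes were all 10 members, up to 3 largest rises and 3 largest falls among called pathway genes per comparison, and the 3 genes most like each called member, of which 1 is not reported here; other genes named were chosen after their values were seen. The members and all lists were chosen with earlier results of these data known, so no list count is independent support.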

Additional observations from a re-analysis of the deposited data

How the results depend on the processing

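Each comparison between treatments was recomputed under 24 alternatives, of which 4, the classes of cells taken alone, were chosen after seeing the data. CCND1 and CDK6 kept their calls for TSA against DMSO and E6R against TSA in all of them, and CDK4 for E6R against TSA. For E6R against DMSO, 0 members were called in 23 of 24, with 1 (RB1) without the low-count filter. Replicate numbers are shared between groups, but nothing in the labels says that they pair the libraries; deviations of same-numbered libraries correlated at r = 0.242, 0.564 and 0.166, with only 2 numbers. With the replicate block, genes called were 6047, 19 and 7567 for TSA against DMSO, E6R against DMSO and E6R against TSA, and members called were 4, 0 and 8, E2F1 and E2F2 being added.

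Genes called for E6R against DMSO, 0 in the report, were 361 by DESeq2, 1095 without the low-count filter, 1 with all deposited barcodes, 1 without mitochondrial and ribosomal protein genes, 6 in replication-high cells and 4 in mitotic-high cells; the 4 pathway lists then held 9 calls by DESeq2 and 15 without the filter. With a mean of at least 20 CPM, which tests fewer genes, 3205 were called for TSA against DMSO and 3665 for E6R against TSA. Cells thinned to 1000 UMIs gave 4149 for E6R against TSA, and library sums thinned to the smallest gave 3 members. Replication-low cells alone, with fewer counts, gave for TSA against DMSO 2 members, 2508 genes and 8 pathway genes, and for E6R against TSA 3 members, 3809 genes and 10 pathway genes. Mitotic-low cells alone gave 2336 genes and 6 pathway genes, and 3 members, 3535 genes and 11 pathway genes. With thinned counts, 3 members were called between replication classes and 1 between mitotic classes. The cause of the other changes was not tested.

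Leaving out 1 library in turn gave 2 to 5 members, 1416 to 6028 genes and 6 to 21 pathway genes for TSA against DMSO, 0 to 3 genes for E6R against DMSO, and 3 to 7 members, 2628 to 6385 genes and 11 to 28 pathway genes for E6R against TSA, the lone library of a group being assumed to vary like the others. Between replication classes 6 to 7 members were called, and between mitotic classes 2 to 4.

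All values that changed sign belonged to comparisons that did not pass, except CCNE2 for E6R against TSA, which was -0.06 in replication-low and -0.00 in mitotic-high cells. For TSA against DMSO, CCNE1 was 0.10 with all deposited barcodes, 0.02 with at least 300 genes, 0.17 without the 5% of cells with most UMIs, 0.15 in replication-low and 0.41 in mitotic-high cells, and -0.19 to 0.04 without 1 library. E2F1 was 0.09 with all barcodes, 0.21 in replication-low and 0.13 in mitotic-high cells, and -0.05 to 0.03 without 1 library, and CCNE2 0.16 in thinned cells, 0.05 in replication-low and 0.34 in mitotic-high cells. For E6R against DMSO, CCND3 was 0.04 with all barcodes, 0.01 without the filter and -0.37 to 0.17 without 1 library; CDK6 was -0.33 to 0.13 without 1 library. In replication-low cells CCNE1 was -0.25, CCNE2 -0.01 and E2F2 -0.23, and CCNE1 was -0.08 in mitotic-high cells. For E6R against TSA, CCNE1 was -0.39 in replication-low and -0.49 in mitotic-high cells, E2F2 was -0.15 in replication-low cells, and RB1 was 0.08 without the filter, 0.01 with total counts and -0.37 to 0.09 without 1 library. Between mitotic classes, thinned counts gave -0.07 for CDK4 and -0.07 for RB1, and without 1 library CCNE2 was -0.37 to 0.36 and CCNE1 -0.40 to 0.14. CDK6 between replication classes was -0.02 to 0.10 without 1 library. Depth limits CCND2 most, with at most 33 UMIs in a library.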
